A study of Mus musculus with 6 samples.

Results

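The heat shock and J-domain chaperones are the proteins that help others to fold, cross membranes, leave complexes or be degraded. Their genes were chosen by symbol, as every single-gene row of the expression table whose symbol starts with Hsp or with Dnaja, Dnajb or Dnajc and a number, leaving out Hspg2, which encodes a proteoglycan. This gave 74 of the 22544 rows. They were divided by where the protein works into 38 genes of the cytosol, 14 of the endoplasmic reticulum (ER), 10 of the mitochondria and 12 of other places, such as the nucleus, the cilium and the synaptic vesicle. Expression had been measured by RNA sequencing of upper-layer neurons of the cerebral cortex, labelled with green fluorescent protein and sorted by fluorescence from Swiss Webster mice at postnatal day 5 (P5, 3 biological replicates) and postnatal day 3 (P3, 3 biological replicates). No genotype or treatment other than age separates the groups. How the label was put into the neurons is not given in the sources used here. Every expression value is an FPKM (fragments scaled to the length of the transcript and to the size of the library) from the authors' deposited table. Cuffdiff had pooled the replicates of an age into a single FPKM, so no value per replicate can be shown. Ratios are log2 of P5 over P3, and their standard error (SE) was worked out from the deposited test statistic.

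The HSP70 proteins hold and release unfolded stretches of other proteins in a cycle driven by ATP. J-domain proteins deliver the client and start ATP hydrolysis, and nucleotide exchange factors such as the HSP110 proteins reset the cycle. HSP90 proteins act later on kinases, receptors and other near-folded clients, the chaperonin HSP60 encloses clients in a chamber that HSP10 caps, and small heat shock proteins hold clients without ATP. The cytosol, the ER and the mitochondria each have their own HSP70 and their own J-domain partners. Many of the cytosolic and mitochondrial genes respond to heat shock factors, and many of the ER genes respond to the unfolded protein response.

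Regulatory sequence is shown first, to set out which of the genes carry the letters of the best-known stress elements. RefSeq promoters (GRCm38.p6, 250 bases before to 50 after each start) were at hand for 60 of the 74 genes, and both strands were searched. Not searched were Dnajc11, Dnajc12, Dnajc18, Dnajc2, Dnajc22, Dnajc30, Dnajc5, Dnajc5b, Hsp90aa1, Hsp90ab1, Hspa13, Hspa8, Hspa9 and Hspb2. The ER stress element was searched as CCAAT followed after 9 bases by CCACG. It lay in 39 of 32851 promoters (0.119%), those of 37 of 27025 genes, and in 3 of 77 promoters of 3 of the 60 chaperone genes, Hspa5, Hsp90b1 and Dnajc3, all of the ER. The matches are in capitals below, on the gene's own strand. They began 65 bases before the start in Hspa5 (chr2:34772001-34772067, plus strand), 105 before it in Dnajc3 (chr14:118937803-118937869, plus strand), and 212 and 107 before it in Hsp90b1 (chr10:86705509-86705680, minus strand), where the second match is on the opposite strand.
Hspa5: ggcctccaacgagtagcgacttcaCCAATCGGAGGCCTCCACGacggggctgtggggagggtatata
Dnajc3: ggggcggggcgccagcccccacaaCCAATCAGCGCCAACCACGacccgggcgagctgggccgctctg
Hsp90b1: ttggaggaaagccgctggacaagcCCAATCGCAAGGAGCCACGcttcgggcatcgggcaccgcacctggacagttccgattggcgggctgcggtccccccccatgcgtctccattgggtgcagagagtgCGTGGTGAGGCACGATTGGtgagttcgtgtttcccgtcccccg

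The heat shock element was searched as 3 alternating GAA and TTC units with 2 bases between neighbours. It lay in 198 of 32851 promoters (0.603%), those of 179 of 27025 genes, and in 6 of 77 promoters of 4 of the 60 chaperone genes, Hspd1, Hspe1, Dnajb6 and Hsph1, none of them of the ER. None of the 60 genes searched held both elements. Hspd1 and Hspe1, which encode HSP60 and HSP10, are read in opposite directions from a shared promoter, so their match is the same stretch, 89 bases before the start of Hspe1 and 144 before that of Hspd1 (chr1:55088035-55088100, given on the plus strand, the strand of Hspe1). In it 2 matches overlap. The match of Dnajb6 began 46 bases before its nearest start (chr5:29735828-29735888, plus strand), and that of Hsph1 lay after its start. A match is a string of letters, and its use by any factor was not measured. Hspa1a, Hspa1b, Hspb1 and Dnajb1 were among the genes searched and held no match. Only exact units at this spacing were searched, so the lack of a match does not show that an element is absent.
Hspe1 and Hspd1: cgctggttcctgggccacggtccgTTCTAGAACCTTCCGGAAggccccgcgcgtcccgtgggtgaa
Dnajb6: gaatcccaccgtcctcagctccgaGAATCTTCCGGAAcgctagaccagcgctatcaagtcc

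No chaperone gene passed the test between P5 and P3. In the authors' deposited table Cuffdiff called 0 of the 65 tested chaperone genes at q = 0.05, and it called 0 of all 12865 tested rows (0%). The lowest q among the chaperone genes in the authors' deposited table was 0.999988, which was also the lowest of the whole table. At an unadjusted p under 0.05 in the authors' deposited table there were 2 chaperone genes, Dnajc21 and Hspb8, both with lower FPKM at P5, where 23 of all tested rows (0.179%) were lower. None was higher at P5 at that p, against 76 of all tested rows (0.591%). Of the other 9 genes, Cuffdiff left Dnajb8, Dnajc22, Dnajc5b, Dnajc5g, Hspa1a, Hspa1b, Hspb1, Hspb7 and Hspb9 untested. All of these but Hspa1a and Hspa1b were listed at 0 at both ages.

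Levels ranged over several orders of magnitude, and most genes lay within 1 log2 unit of equality between the ages. Of the 64 tested genes with FPKM above 0 at both ages, 34 were higher and 30 lower at P5. That is 53.1% higher, against 55.6% of all such rows. Their median log2 ratio was 0.07, against 0.13 over all rows. The ratio lay within 1 log2 unit of 0 in 48 of the 64 (75%), against 66.1% of all rows. It was above 1 in 12 genes, where 23.9% of all rows were above 1, and below -1 in 4 genes, where 10% of all rows were. Precision was low, with a median SE of 1.29 log2 units for the chaperone genes and 1.38 for all rows, and a smallest SE of 0.84 among the chaperone genes. The 95% interval of the ratio included 0 in 62 of the 64, and in 12218 of all 12313 such rows.

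**Figure D1:**
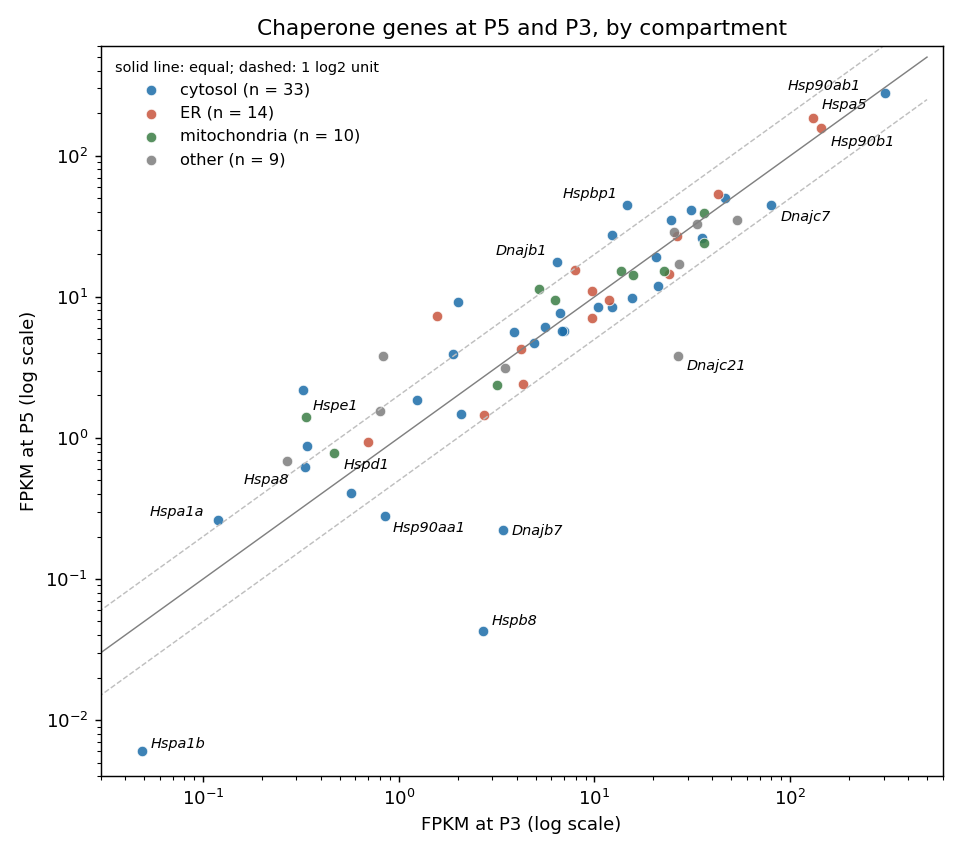
FPKM at P5 (vertical, log scale) against FPKM at P3 (horizontal, log scale) for the 66 chaperone genes with FPKM above 0 at both ages; each point is 1 gene and its colour the compartment. Most points lie between the dashed lines, which mark 1 log2 unit either side of equality, and Hspb8, Dnajb7, Hspa1b and Dnajc21 lie farthest below them.

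Hsp90ab1, Hspa5 and Hsp90b1 carried much of the summed signal. The 74 genes summed to 1437 FPKM at P5 and 1418 FPKM at P3. The 38 cytosolic genes summed to 681 FPKM at P5 and 686 FPKM at P3, a ratio of 0.99. The 14 ER genes summed to 496 FPKM at P5 and 420 FPKM at P3, a ratio of 1.18. Without Hspa5 the ER ratio was 1.07, so this gene made up much of the excess. The 10 mitochondrial genes summed to 133 FPKM at P5 and 140 FPKM at P3, a ratio of 0.95, and the 12 others to 127 FPKM at P5 and 172 FPKM at P3, a ratio of 0.74. Without Dnajc4 and Dnajc28, placed in the mitochondria with less certainty, the mitochondrial ratio was 1.01. These sums have no replicate error and were not tested. Those of the cytosol, the mitochondria and the other places include genes whose listed levels are uncertain, as set out below.

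Gene by gene, the median log2 ratio was -0.06 over 31 cytosolic genes (15 higher and 16 lower at P5), 0.08 over 14 ER genes (9 higher, 5 lower), 0.13 over 10 mitochondrial genes (6 higher, 4 lower) and -0.02 over 9 others (4 higher, 5 lower). Median levels at P5 were 12.8 FPKM in mitochondrial genes, 10.3 in ER genes and 5.70 in cytosolic genes, and at P3 they were 10.001, 9.73 and 4.41 FPKM in the same order. By source of share, the ER genes held 34.5% of the summed chaperone FPKM at P5 and 29.7% at P3, and the cytosolic genes 47.4% at P5 and 48.4% at P3. As set out below, 7 cytosolic, 2 mitochondrial, 2 other and 0 ER genes share at least 10% of their sequence windows with other genes. Their listed levels are uncertain, and so are the sums, shares and medians that hold them. Without them the median level at P5 was 14.7 FPKM in mitochondrial, 10.3 in ER and 7.70 in cytosolic genes.

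**Figure D2:**
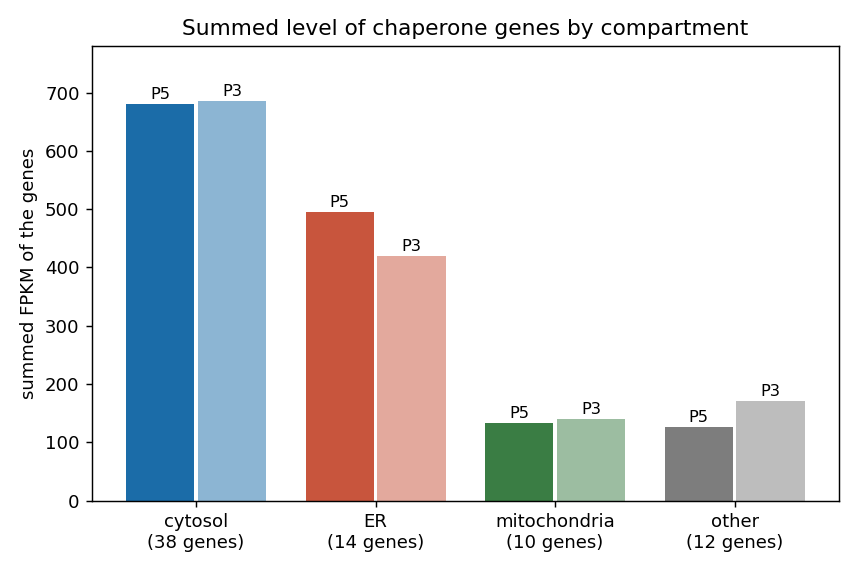
Summed FPKM of the chaperone genes of each compartment, with P5 (dark) left of P3 (light) and the number of genes under each pair. Each bar is a sum of pooled values with no replicate error; the cytosolic and mitochondrial pairs are nearly level, the ER bar is higher at P5 (496 against 420 FPKM) and the bar of the other genes is lower at P5 (127 against 172 FPKM).

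Markers of other cells had larger summed FPKM at P5 in the same libraries, though none of them passed the test. The summed FPKM of 13 microglial markers was 160 at P5 and 20.3 at P3, and all 13 were higher at P5. The sums of 9 endothelial markers (22.7 at P5 and 1.57 at P3), 3 erythroid markers (71.1 at P5 and 2.51 at P3), 9 oligodendrocyte markers (258 at P5 and 124 at P3) and 10 astrocyte markers (3155 at P5 and 2628 at P3) were also larger at P5. Within the astrocyte list, 8 of 10 were higher at P5, and Slc1a3 (758 FPKM at P5 and 1088 FPKM at P3) and Sox9 (143 FPKM at P5 and 252 FPKM at P3) were lower. At P5, 1 erythroid marker was listed at 0, and at P3 that one, 1 microglial (Itgam), 2 endothelial (Tek and Tie1) and 1 oligodendrocyte marker (Mog) were. The 9 upper-layer markers were all present and summed to 510 FPKM at P5 and 496 FPKM at P3. The part of other cells in the chaperone values was not tested, and in such bulk samples fewer cells of a type and less RNA per cell cannot be told apart.

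In the ER, the chaperones that handle newly made secretory and membrane proteins were among the most abundant of the set. Hspa5 (chr2:34627610-34632049 on mm9), which encodes BiP, the HSP70 of the ER lumen, had 185 FPKM at P5 and 131 FPKM at P3. Its log2 ratio was 0.51 (SE 1.03, 95% interval -1.52 to 2.53). Hsp90b1 (chr10:86153586-86168189 on mm9), which encodes GRP94, the HSP90 of the ER, had 156 FPKM at P5 and 144 FPKM at P3, with a log2 ratio of 0.12 (SE 0.92). Both genes were a little higher at P5 by less than 1 SE. Their order turned over with age, Hspa5 being above Hsp90b1 at P5 and below it at P3, by amounts within the error of either.

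The J-domain proteins of the ER were less abundant, and most had ratios near 0. Dnajc18, which encodes an ER membrane J protein, was the most abundant of them, with 53.3 FPKM at P5 and 42.8 FPKM at P3. Dnajb11, whose product ERdj3 binds clients in the lumen, had 26.9 FPKM at P5 and 26.3 FPKM at P3. Its log2 ratio of 0.03 (SE 0.94) was among the closest to 0. Dnajc10, which encodes the disulfide reductase ERdj5, had 15.4 FPKM at P5 and 7.95 FPKM at P3, a log2 ratio of 0.95 (SE 1.002). Dnajc3, which encodes P58IPK, a lumenal J protein linked to the unfolded protein response, had 11.1 FPKM at P5 and 9.71 FPKM at P3. Dnajb9, whose product ERdj4 takes part in the degradation of misfolded proteins, had 9.53 FPKM at P5 and 11.9 FPKM at P3. The 3 genes with the ER stress element shown above, Hspa5, Hsp90b1 and Dnajc3, thus had log2 ratios of 0.51, 0.12 and 0.19.

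Only 1 ER gene lay beyond 1 log2 unit. Dnajb14, which encodes an ER membrane J protein, had 7.36 FPKM at P5 and 1.58 FPKM at P3, a log2 ratio of 2.22 with an SE of 1.85 (p = 0.229 in the authors' deposited table, the lowest of the ER genes). Its relative Dnajb12 had 4.25 FPKM at P5 and 4.23 FPKM at P3. Hspa13, a small HSP70 relative of the ER, had 14.4 FPKM at P5 and 24.0 FPKM at P3, a log2 ratio of -0.74 (SE 0.91). The remaining ER genes, Dnajc1, Dnajc14, Dnajc16 and Dnajc25, had between 0.94 FPKM and 7.06 FPKM at P5 and between 0.70 FPKM and 9.74 FPKM at P3. The ER was the compartment with the fewest low values, 13 of its 14 genes being at 1 FPKM or more at both ages.

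In the cytosol, 1 gene was listed well above all others. Hsp90ab1 (chr17:45704727-45710210 on mm9), which encodes the constitutive HSP90, had 277 FPKM at P5 and 304 FPKM at P3, with a log2 ratio of -0.14 (SE 1.06, 95% interval -2.22 to 1.95). It ranked 126th of all rows at P5 and 132nd at P3, and made up 40.6% of the cytosolic sum at P5 and 44.3% at P3. Hsp90aa1, which encodes the heat-inducible HSP90, was listed at 0.281 FPKM at P5 and 0.855 FPKM at P3. As set out below, its transcript shares much sequence with other genes, so its level is uncertain and the pair is not compared.

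The nucleotide exchange factors, which reset the HSP70 cycle, had ratios of both signs. Hspbp1, which encodes one of them, had 44.7 FPKM at P5 and 14.7 FPKM at P3. Its log2 ratio of 1.61 (SE 1.25) had p = 0.198 in the authors' deposited table. Among the HSP110 genes, Hsph1, which encodes HSP105, had 41.3 FPKM at P5 and 30.99 FPKM at P3 (log2 ratio 0.41, SE 0.90). Hspa4, another of them, had 11.9995 FPKM at P5 and 21.2 FPKM at P3 (log2 ratio -0.82, SE 0.88), and Hspa4l had 9.89 FPKM at P5 and 15.5 FPKM at P3. The ratios of Hsph1 and of its relatives Hspa4 and Hspa4l were thus of opposite sign, each by less than 1 SE. No test set them against each other.

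Of the cytosolic HSP70 genes themselves, Hspa14, whose product works at the ribosome, had the highest listed value, with 35.2 FPKM at P5 and 24.6 FPKM at P3. Hspa2, known for its part in sperm formation and also present in brain, had 8.48 FPKM at P5 and 12.3 FPKM at P3. Hspa8 (chr9:40609356-40613283 on mm9) encodes HSC70, the constitutive HSP70 of most cells, and was listed at 0.617 FPKM at P5 and 0.330 FPKM at P3. The heat-inducible Hspa1a was listed at 0.263 FPKM at P5 and 0.120 FPKM at P3, and its neighbour Hspa1b at 0.00602 FPKM at P5 and 0.0486 FPKM at P3. By these values HSC70, which is abundant in brain as background knowledge has it, ranked 12142nd of all rows at P5 and 11742nd at P3.

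The cytosolic J-domain genes had middling levels. Dnaja2, which encodes a type A partner of HSP70, had 50.5 FPKM at P5 and 46.6 FPKM at P3, with a log2 ratio of 0.11 (SE 0.84, 95% interval -1.53 to 1.75), one of the narrowest intervals of the set. Dnaja1 had 5.74 FPKM at P5 and 6.98 FPKM at P3. Dnajc7, whose product TPR2 binds both HSP70 and HSP90, had 44.9 FPKM at P5 and 80.0 FPKM at P3 (log2 ratio -0.83, SE 0.84). It had one of the largest negative ratios among genes of at least 5 FPKM at either age. Dnajb1, the classical HSP40 and a heat-inducible gene, had 17.6 FPKM at P5 and 6.42 FPKM at P3, a log2 ratio of 1.46 (SE 1.16, p = 0.208 in the authors' deposited table).

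The other cytosolic J proteins included Dnajc24, needed to make diphthamide, with 25.98 FPKM at P5 and 35.6 FPKM at P3, and Dnajb4, with 19.3 FPKM at P5 and 20.5 FPKM at P3. Dnajb5 had 5.76 FPKM at P5 and 6.82 FPKM at P3, and Dnajc2, a J protein of the ribosome, had 6.14 FPKM at P5 and 5.58 FPKM at P3. Of the distant HSP70 relatives, Hspa12a had 4.73 FPKM at P5 and 4.93 FPKM at P3 and Hspa12b had 0.408 FPKM at P5 and 0.573 FPKM at P3. Hspbap1, whose product binds HSPB1, had 1.86 FPKM at P5 and 1.24 FPKM at P3. All of these lay within 1 log2 unit of equality.

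J proteins with known roles in neurons did not differ beyond their error. Dnajc6 encodes auxilin, which brings HSC70 to clathrin-coated vesicles, and had 7.70 FPKM at P5 and 6.68 FPKM at P3. Dnajb2, which encodes the neuronal protein HSJ1, had 5.67 FPKM at P5 and 3.89 FPKM at P3. Dnajb6, whose product keeps polyglutamine proteins from aggregating, had 1.47 FPKM at P5 and 2.07 FPKM at P3. Dnajc12, a partner of the aromatic amino acid hydroxylases that make serotonin and dopamine, had 9.16 FPKM at P5 and 2.001 FPKM at P3. Its log2 ratio of 2.19 had an SE of 5.74, among the widest of the set. Dnajc5 encodes cysteine string protein, which guards the release machinery of synaptic vesicles, and had 33.1 FPKM at P5 and 33.4 FPKM at P3. Its log2 ratio was -0.02 (SE 0.93, 95% interval -1.84 to 1.81).

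The small heat shock proteins were mostly low. Hspb3, a small heat shock protein known from muscle and nerve, had the highest listed value, with 27.3 FPKM at P5 and 12.3 FPKM at P3 (log2 ratio 1.15, SE 1.54). Hspb6, which encodes HSP20, had 8.42 FPKM at P5 and 10.4 FPKM at P3. Hspb8 (chr5:116858504-116872873 on mm9), whose product HSP22 works with BAG3 in selective autophagy, had 0.0431 FPKM at P5 and 2.68 FPKM at P3. Its log2 ratio of -5.96 (SE 2.92) had an unadjusted p of 0.0409 and q of 0.999988 in the authors' deposited table. With a pseudocount of 1 FPKM the ratio was -1.82. Hspb2 was tested and listed at 1.99 FPKM at P5 and at 0 at P3, so it has no ratio. Hspb1, Hspb7 and Hspb9 were listed at 0 at both ages.

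Several of the best-known chaperone genes were listed near 0, and these were the ones with most sequence in common with other genes. For each gene the distinct 50-base windows of its GENCODE M21 transcripts were looked up in the transcripts of all other genes that do not overlap it. In 11 of the 74 chaperone genes at least 10% of windows recurred elsewhere. The share was 62.3% in Hspa1b, 60.3% in Hspa1a, 50.1% in Hspb1, 47.5% in Hsp90aa1, 39.7% in Hspd1, 37.0% in Hspa8 and 18.4% in Hspe1. For Hspa1a and Hspa1b the other gene was mainly the partner, while Hspa8 shared windows with 13 genes, 12 of them pseudogenes, and Hspd1 with 9 pseudogenes. Hsp90ab1, by contrast, shared 3.44% of its windows, and Hspa5 and Hsp90b1 shared none.

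Of the 11 chaperone genes with at least 10% of windows in common, 7 were below 1 FPKM at both ages, and the highest of the 11 was at 5.74 FPKM at P5. Of the 63 with fewer, 9 were below 1 FPKM at both ages. The table as a whole had the same order. Among 1960 genes with at least 10% of windows in common, 1619 (82.6%) were below 1 FPKM at both ages, against 6390 (39.0%) of 16383 genes with fewer. The median FPKM of those 1960 genes was 0 at both ages, and that of the 16383 was 2.14 at P5 and 1.41 at P3. How reads that fit several places were counted is not given in the sources used here, and the part of shared sequence in the low values was not tested. The values of Hspa8, Hsp90aa1, Hspd1, Hspe1, Hspa1a, Hspa1b and Hspb1 are therefore uncertain as levels. By the same cut of 10% so are those of Dnajb6 (17.7% of windows), Dnajc17 (13.9%), Dnajc5b (13.3%) and Dnaja1 (11.6%), wherever they are given.

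**Figure D3:**
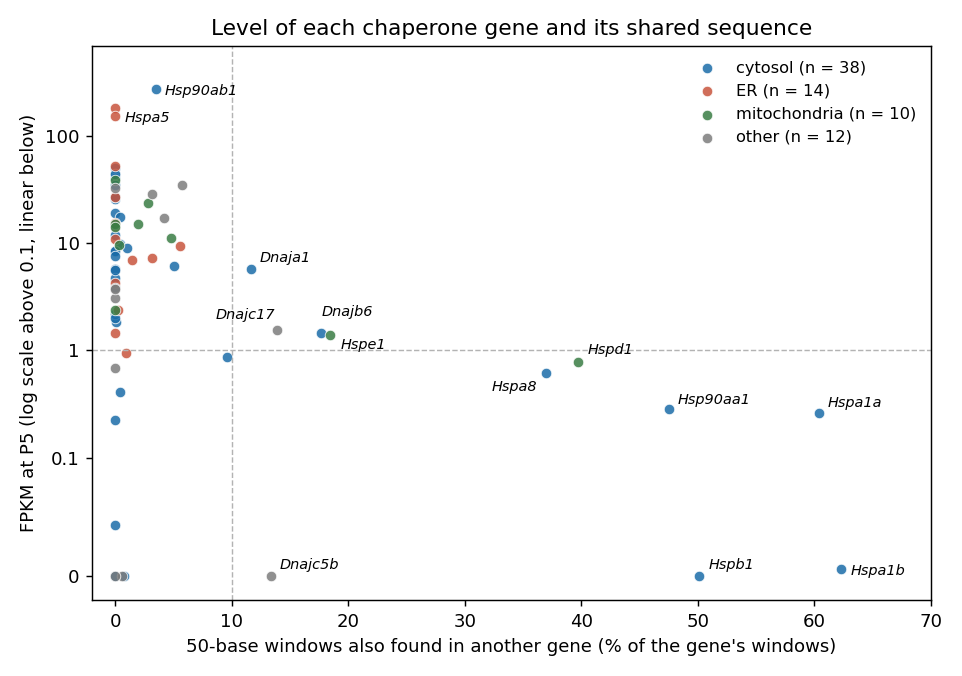
FPKM at P5 (vertical, log scale above 0.1 and linear below) against the percentage of a gene's 50-base windows that also occur in another gene (horizontal) for all 74 chaperone genes, coloured by compartment. The dashed lines mark 10% of windows and 1 FPKM; no gene to the right of 10% exceeds 5.74 FPKM, and Hspa5 and Hsp90ab1 stand at the left edge.

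The likeness is shown by coding sequence, with the bases that differ in capitals (GENCODE M21, GRCm38, read 5′ to 3′ on each gene's own strand). Coding bases 61 to 180 of Hspd1 (gene at chr1:55077835-55088243, minus strand) differ at 3 of 120 from the processed pseudogene Hspd1-ps3 (chr11:41498737-41500458, plus strand), and 98.95% of all 1719 coding bases are identical. Those of Hspa1a (chr17:34969190-34972156, minus strand) differ at 1 of 120 from Hspa1b (chr17:34956436-34959238, minus strand), and 99.58% of 1923 are identical. Bases 63 to 180 of Hspe1 (chr1:55088132-55091307, plus strand) differ at 7 of 118 from the pseudogene Hspe1-ps2 (chr12:81399812-81400123, plus strand), and 92.48% of 306 are identical. Most of the shared windows of Hspe1, 255, are with the protein-coding gene AC117239.2, whose sequence is not shown, and 29 are with Hspe1-ps2. In the stretches shown for Hspd1 and Hspe1, each run of identical bases is shorter than a window. These stretches show likeness only, and no whole window shared with the pseudogene beside them lies within them.
Hspd1: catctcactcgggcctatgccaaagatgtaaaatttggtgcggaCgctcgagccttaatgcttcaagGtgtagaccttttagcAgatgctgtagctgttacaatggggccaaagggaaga
Hspd1-ps3: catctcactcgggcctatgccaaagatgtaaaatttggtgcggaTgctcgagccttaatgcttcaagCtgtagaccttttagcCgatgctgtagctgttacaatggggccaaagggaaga
Hspa1a: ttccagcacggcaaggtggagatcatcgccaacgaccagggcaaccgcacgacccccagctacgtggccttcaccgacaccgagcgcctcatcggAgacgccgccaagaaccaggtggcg
Hspa1b: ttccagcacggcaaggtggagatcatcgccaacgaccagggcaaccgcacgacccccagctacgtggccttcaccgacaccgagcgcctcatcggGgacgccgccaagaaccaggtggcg
Hspe1: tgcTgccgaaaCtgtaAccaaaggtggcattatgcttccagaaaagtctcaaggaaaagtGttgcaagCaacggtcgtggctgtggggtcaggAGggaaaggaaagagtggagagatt
Hspe1-ps2: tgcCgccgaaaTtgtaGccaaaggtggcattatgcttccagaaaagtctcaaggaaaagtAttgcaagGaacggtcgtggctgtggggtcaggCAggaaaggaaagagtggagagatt

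In the mitochondria, Dnajc15 and Hspa9, both of the import motor, had the highest listed values. The genes of the chaperonin, whose levels are uncertain, had the lowest. Hspa9 encodes mortalin, the HSP70 that pulls proteins through the inner membrane and folds them in the matrix, and had 23.9 FPKM at P5 and 36.3 FPKM at P3. Its log2 ratio was -0.60 (SE 0.84, 95% interval -2.25 to 1.04, p = 0.473 in the authors' deposited table, the lowest of the mitochondrial genes). Dnajc15, which encodes a J protein of the import motor also called MCJ, had the highest listed value, with 39.2 FPKM at P5 and 36.3 FPKM at P3 (log2 ratio 0.11, SE 1.18). Dnajc19, whose product is the related TIMM14, had 11.3 FPKM at P5 and 5.23 FPKM at P3, and its log2 ratio of 1.11 had an SE of 5.99. Neither J protein of the motor differed from P3 beyond its error.

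Dnaja3, which encodes TID1, the matrix J protein that works with mortalin, had 14.3 FPKM at P5 and 15.8 FPKM at P3. Dnajc4, placed in the mitochondria with less certainty, had 15.1 FPKM at P5 and 22.6 FPKM at P3 (log2 ratio -0.58, SE 1.28). Dnajc11, linked to the cristae, had 15.2 FPKM at P5 and 13.7 FPKM at P3. Dnajc30, of the inner membrane, had 9.57 FPKM at P5 and 6.31 FPKM at P3, and Dnajc28 had 2.39 FPKM at P5 and 3.18 FPKM at P3. The chaperonin genes were listed lowest. Hspd1 (chr1:55134678-55144776 on mm9) was listed at 0.787 FPKM at P5 and 0.467 FPKM at P3, and Hspe1 (chr1:55144992-55148161 on mm9) at 1.40 FPKM at P5 and 0.334 FPKM at P3. Their log2 ratios were 0.75 (SE 2.17) and 2.06 (SE 2.97). Without these 2 genes the mitochondrial median was -0.02, against 0.13 with them.

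Chaperone-related genes of other places included the gene with the lowest p of the set. Dnajc21 (chr15:10376518-10400271 on mm9), whose product takes part in the making of the large ribosomal subunit, had 3.82 FPKM at P5 and 26.6 FPKM at P3. Its log2 ratio was -2.80 (SE 1.14, 95% interval -5.04 to -0.56), with an unadjusted p of 0.0142 and q of 0.999988 in the authors' deposited table. None of its 50-base windows recurred in another gene, and no other row of the table overlapped its locus. The ratios of the nuclear J proteins were smaller in size, and no test set them against that of Dnajc21. Dnajc9, a histone chaperone, had 28.7 FPKM at P5 and 25.6 FPKM at P3, and Dnajc8, a spliceosome component, had 17.1 FPKM at P5 and 26.99 FPKM at P3 (log2 ratio -0.66, SE 1.01). Hspb11, which despite its name encodes the intraflagellar transport protein IFT25 of cilia, had 34.9 FPKM at P5 and 53.7 FPKM at P3 (log2 ratio -0.62, SE 1.16). Dnajc13, of endosomes, had 3.12 FPKM at P5 and 3.50 FPKM at P3, and the nuclear Dnajc17 had 1.55 FPKM at P5 and 0.804 FPKM at P3.

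**Figure D4:**
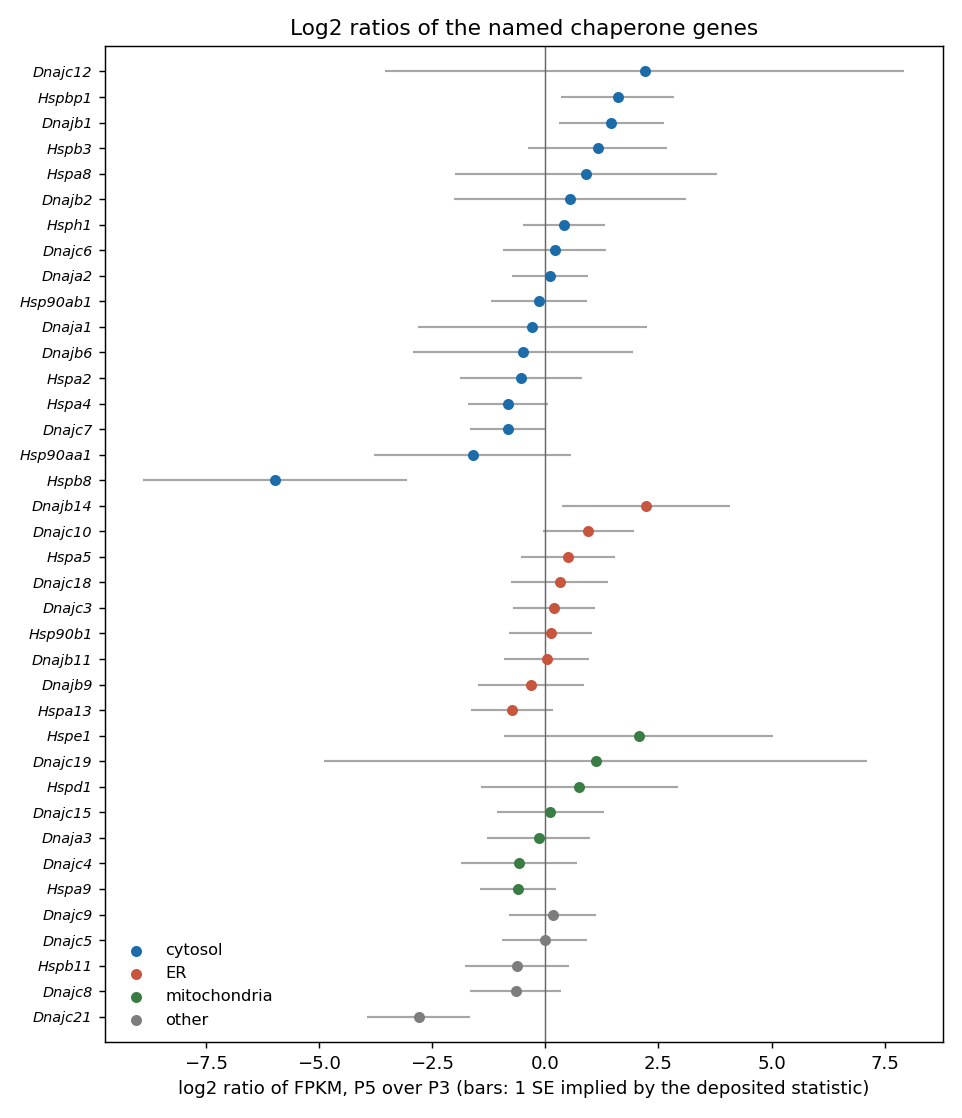
Log2 ratio of FPKM (P5 over P3) of the 38 named and tested chaperone genes with FPKM above 0 at both ages, grouped and coloured by compartment, with bars of 1 SE implied by the deposited test statistic. Most bars cross 0; Dnajc21 (-2.80) and Hspb8 (-5.96) lie lowest, and the bars of Dnajc12 and Dnajc19 are the widest drawn.

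None of the genes that work with the chaperones passed the test, with 0 called in each of the lists below. Of the 4 tested genes among the heat shock factors and their binding protein Hsbp1, 1 was higher and 3 were lower at P5. Hsf1, the main heat shock factor, had 1.53 FPKM at P5 and 3.67 FPKM at P3, Hsf2 had 59.7 FPKM at P5 and 115 FPKM at P3 (log2 ratio -0.95, SE 0.99), and Hsbp1, whose product binds HSF1, had 507 FPKM at P5 and 461 FPKM at P3. Of 23 cofactors of cytosolic HSP70 and HSP90, 9 were higher and 14 lower, with a median log2 ratio of -0.15. Ptges3, which encodes the HSP90 cochaperone p23, had 179 FPKM at P5 and 420 FPKM at P3 (log2 ratio -1.24, SE 1.11). Of the 50-base windows of Ptges3, 19.6% recurred in other genes, so its level is uncertain too, though it was not listed near 0. Ahsa1, which stimulates the HSP90 ATPase, had 67.4 FPKM at P5 and 62.8 FPKM at P3. Ppp5c, a phosphatase bound to HSP90, had 13.6 FPKM at P5 and 3.22 FPKM at P3 (log2 ratio 2.08, SE 1.48). Bag3, the partner of HSPB8, had 3.24 FPKM at P5 and 0.604 FPKM at P3 (log2 ratio 2.42, SE 2.07), opposite in sign to Hspb8.

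The cytosolic chaperonin TRiC, which folds actin and tubulin, and its helper prefoldin were abundant, with ratios near 0. All 13 tested genes lay within 1 log2 unit of 0, between -0.39 (Pfdn5) and 0.39 (Cct7), with a median of -0.03. In Pfdn5, 10.3% of the 50-base windows recurred in other genes. Cct5 had 232 FPKM at P5 and 240 FPKM at P3, and Cct6a had 178 FPKM at P5 and 182 FPKM at P3. Cryab, the small heat shock protein alphaB-crystallin, known from lens, muscle and glia, had 48.9 FPKM at P5 and 7.89 FPKM at P3. Its log2 ratio of 2.63 (SE 1.41) had p = 0.0626 in the authors' deposited table. Cryaa was listed at 0 at both ages.

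In the ER, 13 of 21 tested folding and unfolded protein response genes were higher and 8 lower at P5, with a median log2 ratio of 0.11. Canx, which encodes the lectin chaperone calnexin, had 696 FPKM at P5 and 930 FPKM at P3, and Cuffdiff gave it no test. Pdia3, a disulfide isomerase that works with calnexin, had 205 FPKM at P5 and 196 FPKM at P3. Xbp1, which encodes a transcription factor of the unfolded protein response, had 40.9 FPKM at P5 and 13.6 FPKM at P3 (log2 ratio 1.59, SE 1.11), and Atf6, which encodes another, had 2.75 FPKM at P5 and 0.920 FPKM at P3. Both ratios were close to the SE or little above it.

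Of 14 tested partners in the mitochondria, 7 were higher and 7 lower at P5, with a median log2 ratio of -0.04. Yme1l1, an inner membrane protease, had 134 FPKM at P5 and 244 FPKM at P3, and Clpp, a matrix protease, had 47.5 FPKM at P5 and 35.8 FPKM at P3. Grpel2, a nucleotide exchange factor of mortalin, had 5.38 FPKM at P5 and 12.3 FPKM at P3 (log2 ratio -1.19, SE 0.99). Afg3l2, another inner membrane protease, had 7.08 FPKM at P5 and 13.4 FPKM at P3. None of these passed the test.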

How the data were processed

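Samples were grouped by the age in their titles, 3 at P5 and 3 at P3. TopHat, Cuffdiff 2.02 and the mouse build mm9 are named in the submitters' processing notes. The sources used here do not give the annotation, the read length, the strandedness or how multiply mapped reads were counted. The authors deposited 1 table with a pooled FPKM per age, a log2 ratio, a test statistic (a score) and a p-value and q-value per gene. Depth is unknown, since FPKM keeps no counts, and p-values cover only the spread that Cuffdiff took from the replicates.

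The test was the authors' own, at q = 0.05 over 12865 rows with status OK. The SE is the size of the log2 ratio divided by that of the deposited statistic, whose two-sided normal tail matched the deposited p-value to within 2.80e-06, and 95% intervals are 1.96 SE either side. Medians were taken over tested rows whose FPKM was above 0 at P5 and at P3. Loci are mm9, as deposited, with starts counted from 1. Windows came from GENCODE M21 transcripts and were counted on either strand; lengths of 36 and 75 bases were tried too. Sequences are from RefSeq and GENCODE on GRCm38, and no coordinate was moved between builds.

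The genes, lists and compartments were chosen with earlier results of these data known. Named were 30 well-known chaperones whatever their values, the 3 most abundant of each compartment, those with p under 0.1, the 5 largest ratios in each direction at 5 FPKM or more, and for each partner list the 2 most abundant genes and the 2 with the lowest p. Others are named to account for all 74. Alternatives were stricter thresholds, Bonferroni adjustment, FPKM filters, pseudocounts of 1 and 0.1, centring and means. Genes that overlap others, share windows, lead a compartment or are placed with less certainty were also left out in turn. Python 3.11.15, pandas 2.3.3, numpy 2.4.6, scipy 1.17.1 and Biopython 1.88 were used, and the calculation of ratios and windows was tested on simulated data.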

Additional observations from a re-analysis of the deposited data

How the results depend on the processing

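The count of chaperone genes called was 0 under a q of 0.01, Bonferroni adjustment, adjustment over rows of at least 1 FPKM, and a minimum of 1 log2 unit. Of the other settings tried for medians and sums, 52 moved a value by no more than its tolerance (0.1 log2 unit for a median), and 7 moved it further. The number of genes higher at P5, 34 as reported, was between 29 and 33 under the other settings. Without genes that share at least 10% of windows, the cytosolic median was 0.11 at windows of 50 and of 75 bases, against -0.06 as reported, and the mitochondrial median was -0.016 at windows of 50, 36 and 75 bases, against 0.13. That setting was chosen after the values had been seen. The mean of the mitochondrial ratios was 0.31. The summed ER ratio was 1.07 without Hspa5. Without genes placed with less certainty, the summed ratio was 0.995 in the cytosol, 1.18 in the ER and 1.01 in the mitochondria. The mitochondrial median was then 0.38. The cause of these moves was not tested beyond the genes left out. Medians this close to 0 carry no direction. Of the named ratios, Hspb8 with a pseudocount of 1 FPKM (-1.82) was the one that moved by over 1 SE, and none changed sign. No paired analysis was possible because the table holds 1 pooled value per age, and for the same reason no replicate could be left out. The depth of the libraries is unknown. The median half-width of a 95% interval was 2.52 log2 units for a chaperone gene, and most smaller differences were not detectable at that precision. Over all tested rows the spread of the deposited statistic, taken from its median absolute deviation, was 0.66. The normal curve behind the p-values has a larger spread, so the SEs and intervals given here may be too wide.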

Other observations

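Of the 16 chaperone genes with a ratio beyond 1 log2 unit, 6 are not described above. They were picked after their values were seen, and none passed the test. Dnajc27, which encodes a Rab-like GTPase with a J domain, had 3.78 FPKM at P5 and 0.831 FPKM at P3 (log2 ratio 2.19, SE 1.92). Dnaja4, a cytosolic type A J protein, had 3.95 FPKM at P5 and 1.90 FPKM at P3 (log2 ratio 1.06, SE 1.60). Hspa1l, an HSP70 gene of the testis, had 0.873 FPKM at P5 and 0.338 FPKM at P3, and Dnajb13, which encodes a J protein of the ciliary and sperm axoneme, had 0.685 FPKM at P5 and 0.269 FPKM at P3. Dnajb3 had 2.20 FPKM at P5 and 0.325 FPKM at P3 (log2 ratio 2.76, SE 6.46), and its deposited locus overlapped 8 other rows of the table. Dnajb7 had 0.224 FPKM at P5 and 3.41 FPKM at P3 (log2 ratio -3.93, SE 4.41), and its locus overlapped 1 other row.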
